A study of Mus musculus with 2 samples.

Results

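The genes described here are 40 genes of mitosis and the spindle, found by their symbols among the 31205 gene symbols of the table. All 40 were present, and each had at least 100 UMIs (unique molecular identifiers, a count of captured RNA molecules) in the cells kept. The study sequenced single cells of duodenal crypts from wild-type mice in a group labelled NT and a group labelled ES. These letters are not spelled out, and the title speaks of chronic stress and ageing in stem cells of the gut. Each group was 1 library made from crypts pooled over 5 animals. Barcodes end in 1 or 2, and nothing read here ties either number to NT or ES. All comparisons between libraries are therefore of library 2 with library 1, and none has a direction in terms of treatment. With 1 library a group there is no test, and every interval is a 95% interval that covers counting error only.

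Mitosis begins when CDK1 pairs with B cyclins, after which chromosomes condense, the spindle captures each chromosome at its kinetochore, and the anaphase-promoting complex triggers their separation. Kinesins and bundling proteins then build the midzone where the cell is cut apart. Most of these genes are transcribed late in the cell cycle, from S phase into G2 and M, under the DREAM complex, B-MYB and FOXM1. In crypts, division is known to occur in Lgr5-positive stem cells and in the transit-amplifying progenitors above them, while Paneth cells and mature enterocytes have left the cycle.

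The late transcription of this group is known to act through 2 short promoter elements, the cell cycle genes homology region, CHR, searched here as TTTGAA or TTCGAA, and the CCAAT box. RefSeq windows of 300 bases, 250 before and 50 after the start of transcription on GRCm38.p6, were found for 35 of the 40 genes, 37 windows in all. The genes with no entry were Ccna2, Tpx2, Aurkb, Pbk and Incenp. The CHR letters on either strand stood in 31 of the 37 windows, or 83.8%, against 19.2% of 32851 windows of all genes. CCAAT on either strand stood in 81.1% against 37.4%, and both stood in 73.0% against 7.52%. Words of both kinds can share end letters, which none did in the stretches printed here. A match is a description of sequence, not a bound site. The windows of Ccnb1, Birc5, Nusap1, Cenpe, Nek2 and Knstrn held no CHR letters. The stretches from 200 bases before to 25 after the start are shown for 5 members with both elements. Cdc20, Cenpa and Ccnb2 stood at least 2-fold lower in stem-marker cells high in S phase genes, and Cdk1 and Top2a did not, as described further on. They lie at chr4:118437319-118437543 on the minus strand, chr5:30666686-30666910 on the plus strand, chr9:70421530-70421754 on the minus strand, chr10:69352888-69353112 on the minus strand and chr11:99024165-99024389 on the minus strand. Capitals mark the CHR and CCAAT letters on either strand, and each stretch reads 5′ to 3′ along its gene.
Cdc20: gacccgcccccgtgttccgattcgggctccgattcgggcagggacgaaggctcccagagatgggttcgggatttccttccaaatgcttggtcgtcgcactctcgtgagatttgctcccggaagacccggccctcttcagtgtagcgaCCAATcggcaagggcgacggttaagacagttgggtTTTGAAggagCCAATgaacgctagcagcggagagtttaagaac
Cenpa: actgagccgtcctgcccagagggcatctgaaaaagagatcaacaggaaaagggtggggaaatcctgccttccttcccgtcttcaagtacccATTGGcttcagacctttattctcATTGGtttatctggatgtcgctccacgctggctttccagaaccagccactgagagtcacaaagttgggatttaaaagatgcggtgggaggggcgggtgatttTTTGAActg
Ccnb2: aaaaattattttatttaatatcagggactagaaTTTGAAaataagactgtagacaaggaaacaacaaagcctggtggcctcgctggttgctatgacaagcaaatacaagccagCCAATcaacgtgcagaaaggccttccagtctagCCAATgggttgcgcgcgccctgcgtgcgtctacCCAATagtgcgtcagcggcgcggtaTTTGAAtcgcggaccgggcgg
Cdk1: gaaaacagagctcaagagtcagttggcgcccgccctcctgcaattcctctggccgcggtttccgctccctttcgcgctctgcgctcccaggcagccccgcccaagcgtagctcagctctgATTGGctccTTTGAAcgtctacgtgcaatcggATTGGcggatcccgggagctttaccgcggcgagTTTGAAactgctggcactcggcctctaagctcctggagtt
Top2a: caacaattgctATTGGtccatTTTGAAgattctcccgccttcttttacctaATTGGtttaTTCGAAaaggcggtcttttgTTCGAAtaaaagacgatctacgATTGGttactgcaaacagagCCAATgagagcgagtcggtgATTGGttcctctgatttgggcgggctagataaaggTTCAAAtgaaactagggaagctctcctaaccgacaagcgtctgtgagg
Each of these 5 stretches holds at least 1 CHR word and 2 CCAAT words, in the lower members and in the others.

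Classes of cells were set by UMIs of marker genes, none of them a member, and are ranges of marker level, not types. Stem-marker cells passed 30 UMIs per 10000 of Lgr5, Olfm4, Ascl2, Smoc2, Gkn3 and Slc12a2. Epithelial cells past no lineage cut were split at 8 Olfm4 UMIs per 10000 into Olfm4-mid and Olfm4-low cells. Goblet, enterocyte, Paneth, enteroendocrine, tuft and lymphocyte markers set the other classes. Among the 7784 kept cells, 4057 of library 1 and 3727 of library 2, 290 passed several cuts and were left out. Of all kept cells 332 lay within 20% of the stem cut, 515 near the enterocyte cut, 147 near the goblet cut and 184 near the Olfm4 split. Kept cells had medians of 10854 and 11800 UMIs. Lymphocyte-marker cells were shallower, at 2448 and 3238 UMIs, as were tuft-marker cells, at 2904 and 3685. None of the lymphocyte markers fixed for the class was among the 10 genes highest in it by fold, which were led by Dock10, Trgv2 and Was. The Olfm4-mid class was led by S phase genes such as Cdc6 and Rrm2. The libraries shared 40 barcode sequences, 13 of them among kept cells, and no doublet caller was run.

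Together the 40 genes gave 5313 UMIs per 1000000 UMIs (CPM; interval 5275 to 5352) in the 1099 stem-marker cells of library 1 and 5454 (5408 to 5500) in the 776 of library 2. Olfm4-mid cells stood at 5683 and 5474 CPM, Olfm4-low cells at 4674 and 4185, and goblet-marker cells at 2758 and 2327. Enterocyte-marker cells held 539 and 637 CPM and Paneth-marker cells 710 and 659. The summed members were thus 9.86-fold and 8.57-fold higher in stem-marker than in enterocyte-marker cells, in libraries 1 and 2. The enterocyte-marker level moved with its marker cut, to 1246 and 1094 CPM with all class cuts halved and to 354 and 396 with them doubled, where stem-marker cells stood at 5494 and 5566 and at 5026 and 5439 CPM. Lymphocyte-marker cells came to 2055 (1955 to 2159) and 3933 (3806 to 4064) CPM, with a gap between the libraries that no crypt class of over 100 cells in each library showed. Enteroendocrine-marker cells held 1573 and 426 CPM over 59 and 89 cells, and tuft-marker cells 1381 and 1230 CPM over 24 and 59 cells, the first of these under the minimum of 50 cells. Both rested on few cells. Without the 5 cells with most member UMIs in each library, enteroendocrine-marker cells held 580 and 302 CPM. Tuft-marker cells then held 472 and 564 CPM.

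**Figure D1:**
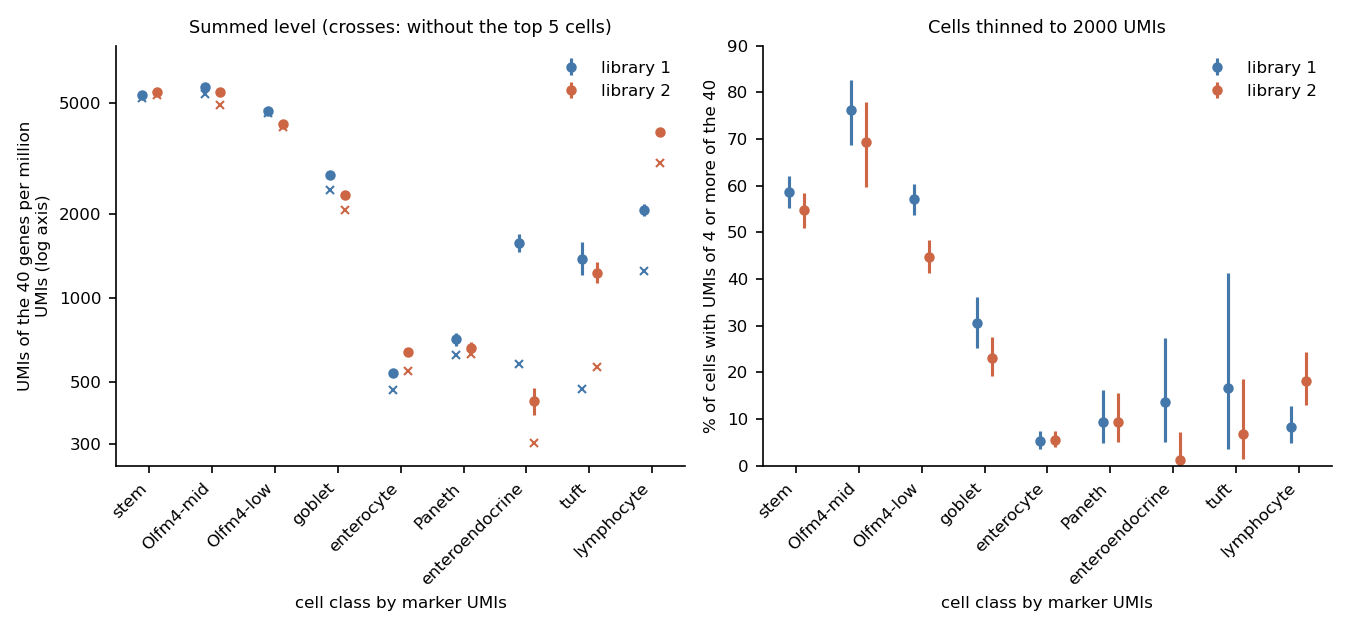
Left: summed UMIs of the 40 genes per 1000000 UMIs of each class (log axis) in library 1 (blue) and library 2 (orange), with exact Poisson intervals as bars; crosses leave out the 5 cells of each library with most member UMIs. Right: share of cells, thinned to 2000 UMIs, with a UMI of 4 or more members, with exact binomial intervals; stem-marker cells stand at 58.7% and 54.7% and enterocyte-marker cells at 5.36% and 5.54%.

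Depth differs between classes, so each cell was also thinned to 2000 UMIs and counted if 4 or more members had a UMI. In stem-marker cells 513 of 874 in library 1, or 58.7% (exact binomial interval 55.3% to 62.0%), and 370 of 676 in library 2, or 54.7% (50.9% to 58.5%), were counted. Olfm4-mid cells reached 76.1% and 69.4%. Olfm4-low cells reached 57.2% (53.8% to 60.4%) and 44.8% (41.3% to 48.3%). Goblet-marker cells reached 30.5% and 23.2%. The shares in classes held not to divide were 5.36% and 5.54% for enterocyte markers and 9.48% and 9.35% for Paneth markers. The enterocyte-marker cells counted, 30 and 38 of them, held 3131 and 4115 CPM of members, and the others 405 and 426. With all class cuts halved the enterocyte-marker shares were 14.8% and 11.2%, and with them doubled 1.87% and 1.72%. Without thinning, the stem-marker shares were 82.4% and 85.6% and the enterocyte-marker shares 52.6% and 63.4%. The Olfm4-low shares without thinning were 82.1% and 82.1%. Thinning left out 225 and 100 stem-marker cells that were too shallow. Within stem-marker cells, those with 4 or more members had 7474 and 8140 CPM of members and those with fewer had 1093 and 985. Stem cell markers were lower in the first set, at 8519 and 9975 CPM against 11375 and 12388 in the second.

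Along Olfm4, a secreted glycoprotein that falls as cells leave the crypt base, the summed members of stem-marker and unassigned epithelial cells were not in 1 order. From 4 to 8 Olfm4 UMIs per 10000 they stood at 5954 and 6051 CPM, and from 20 to 50 at 5679 and 5456. At 100 or more they were 4257 CPM in library 1 and 5539 in library 2. Below 1 they were 4404 CPM over 388 cells of library 1 and 2380 CPM over 240 of library 2, with enterocyte markers at 6028 and 7326 CPM in the same cells. From 1 to 2 they were 4085 CPM (4026 to 4145) in library 1 and 3492 (3431 to 3553) in library 2.

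All 40 members were at least 2-fold higher in stem-marker than in enterocyte-marker cells in both libraries, as were 25.8% of 12615 genes measured. Their median log2 fold was 3.34, against 0.41 over all genes. Against Paneth-marker cells it was also 40 of 40, beside 65.2% of genes. In Paneth-marker cells the Paneth marker list alone held 476101 CPM, which lowers all other genes there. Of the cyclin group, Ccna2, the cyclin that serves S phase and early mitosis, stood at 258 and 256 CPM in stem-marker cells and 24.8 and 29.7 in enterocyte-marker cells. Cdk1, the kinase that drives entry into mitosis, stood at 150 and 168 against 15.6 and 21.4 CPM. Ccnb2, one of its B cyclin partners, stood at 141 and 151 against 23.3 and 30.1 CPM. Ccnb1, the other B cyclin, and Cdkn3, a phosphatase acting on CDK1, stood at 90.8 and 89.3 and at 50.3 and 51.4 CPM in stem-marker cells.

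The mitotic kinases summed to 537 and 576 CPM in stem-marker cells and 50.3 and 60.4 in enterocyte-marker cells. Pbk, a mitotic serine/threonine kinase, stood at 124 and 132 CPM, Plk1, which acts at centrosomes and kinetochores, at 82.0 and 82.6, and Aurkb, the kinase of the chromosomal passenger complex, at 66.7 and 76.9 CPM in stem-marker cells. Aurka, Nek2, Bub1, Bub1b and Ttk, kinases and pseudokinases of the centrosome and the spindle checkpoint, ranged there from 41.5 to 69.8 CPM. Each of the 8 was at most 11.4 CPM in enterocyte-marker cells.

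Ube2c, the ubiquitin-conjugating enzyme of the anaphase-promoting complex, stood at 410 and 398 CPM in stem-marker cells against 54.8 and 51.1 in enterocyte-marker cells. Cdc20, the activator of that complex, stood at 93.2 and 86.8 against 10.5 and 13.5 CPM. Chromosome and centromere genes made up 32.5% and 33.8% of all member UMIs in stem-marker cells. Mki67, which coats mitotic chromosomes, stood at 611 and 608 CPM against 54.3 and 64.4 in enterocyte-marker cells. Top2a, the topoisomerase that untangles replicated DNA, stood at 575 and 670 against 42.2 and 49.3 CPM. Birc5, or survivin, of the passenger complex, stood at 244 and 254 against 39.5 and 51 CPM. Cenpa, the centromeric histone H3 variant, stood at 187 and 195 CPM, and Incenp, the scaffold of the passenger complex, at 109 and 115 CPM in stem-marker cells. The 5 genes thus stood from 4.97-fold higher (Birc5, library 2) to 13.6-fold higher (Top2a, both libraries) in stem-marker than in enterocyte-marker cells.

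Among kinetochore genes, stem-marker cells held 159 and 150 CPM of Cenpe, a kinesin that moves chromosomes to the spindle equator, 117 and 129 of Cenpf, and 80.3 and 79.7 of Knstrn, which helps anchor spindle fibres. Spag5 and Kif2c were lower, from 39.5 to 50.6 CPM. Of the spindle assembly genes, Nusap1 stood at 152 and 148 CPM, Tpx2, which activates Aurora A on microtubules, at 144 and 148, and Hmmr at 105 and 103. Kif11, the kinesin that pushes spindle poles apart, stood at 100 and 107 CPM. Aspm, Ckap2 and Ckap2l ranged from 50.2 to 91.6 CPM. Of the cytokinesis genes, Kif23, a kinesin of the centralspindlin complex, stood at 146 and 141 CPM, Kif20b at 109 and 108, and Racgap1, the partner of Kif23 in that complex, at 101 and 98.8. Ect2, Prc1, Anln, Prr11 and Iqgap3 ranged from 44.5 to 96.2 CPM. Kif23 had one of the smallest folds over enterocyte-marker cells, a mean log2 of 2.13, since it stood at 28.8 and 37.2 CPM there, and Nusap1 the largest, 4.11.

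Other genes of cell division, in lists drawn up for the same purpose, were read by the same 2-fold rule for stem-marker over enterocyte-marker cells. Of all 12615 genes measured, 25.8% met that rule. It was met by 18 of 19 kinetochore genes, among them Spc24 at 113 and 106 against 16.7 and 22.7 CPM. All 15 further spindle kinesins and assembly factors met it, as did all 7 condensin subunits, with Smc4 at 455 and 460 against 64.9 and 73.4 CPM. All 15 M phase regulators met it too, with Cks2, a CDK-binding subunit, at 200 and 182 against 47.3 and 48.0 CPM. Of the checkpoint and anaphase list, 6 of 11 met it. Bub3 did, at 115 and 123 against 41.8 and 51.6 CPM, while Anapc13, a subunit of the anaphase-promoting complex, stood at 108 and 106 against 98.4 and 88.1. Of tubulin and nuclear protein genes 8 of 10 met it, and of S phase genes all 25 measured. CDK inhibitors, which hold cells out of the cycle, did not go one way: of 6 measured, Cdkn1b and Cdkn2c were at least 2-fold higher in stem-marker cells and Cdkn1a and Cdkn2b at least 2-fold lower. Cdkn1a stood at 27.6 and 21.7 CPM in stem-marker and 147 and 170 in enterocyte-marker cells, and Cdkn1b at 207 and 194 against 101 and 94.2.

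Across the 3609 and 3343 epithelial cells, the 15 genes most like the summed members by the mean Pearson correlation of log levels within each library were Hmgb2 (0.683), Smc4 (0.635), Smc2 (0.573), Cdca8 (0.569), Ptma (0.567), Tmpo (0.563), Pclaf, Tuba1b, Tubb5, Cdca3, Stmn1, Melk, Kif15, Tacc3 and Cks2 (0.514). Hmgb2 and Ptma are small acidic or DNA-binding chromatin proteins, and Smc2 and Smc4 are the core of condensin. The cells of a library share its depth and its free RNA. Within stem-marker cells alone the correlation was 0.599 for Hmgb2 and 0.280 for Ptma. Among the members, the 780 pairs had correlations from 0.155 for Knstrn with Incenp to 0.607 for Ube2c with Nusap1 in stem-marker cells, with a median of 0.386. Mki67 followed the sum of the other members most closely, at 0.673, then Ube2c (0.646), Ccna2 (0.634) and Birc5 (0.626). These are among the members with most UMIs in stem-marker cells, and the part of UMI number in this order was not tested.

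Stem-marker cells were split by UMIs of 26 S phase genes at 30 per 10000, which no member entered. Members summed to 4110 and 4081 CPM in S-high cells, 404 and 258 in number, and to 6099 and 6218 in the 695 and 518 S-low cells. At least 2-fold lower in S-high cells in both libraries were 12 of 40 members, against 0.684% of 11836 genes. They were Ccnb1, Ccnb2, Cdc20, Ube2c, Cenpa, Cenpe, Cenpf, Aspm, Knstrn, Cdkn3, Ckap2 and Prr11. Cdc20 stood at 45.1 and 25.8 CPM in S-high against 125 and 121 in S-low cells. Cenpa stood at 92.0 and 57.3 against 249 and 271, and Ccnb1 at 44.0 and 34.9 against 121 and 120 CPM. Cdk1, by contrast, stood at 143 and 154 against 155 and 176 CPM, and Top2a at 609 and 752 against 552 and 624. Pbk stood at 142 and 158 in S-high against 111 and 118 CPM in S-low cells, a mean log2 of 0.39, the highest of the 40. The split lies in a continuous range, with 557 stem-marker, Olfm4-mid and Olfm4-low cells within 20% of it.

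The share of stem-marker cells with 4 or more members was about the same on both sides of the split, 57.5% and 55.3% in S-high and 59.4% and 54.5% in S-low cells. The share with 10 or more was lower in S-high cells, at 18.0% and 23.7%, than in S-low cells, at 35.9% and 32.6%. The intervals of these last shares do not overlap in library 1 (14% to 22.7% against 31.9% to 40.0%) and do in library 2 (18.3% to 29.9% against 28.3% to 37.1%).

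**Figure D2:**
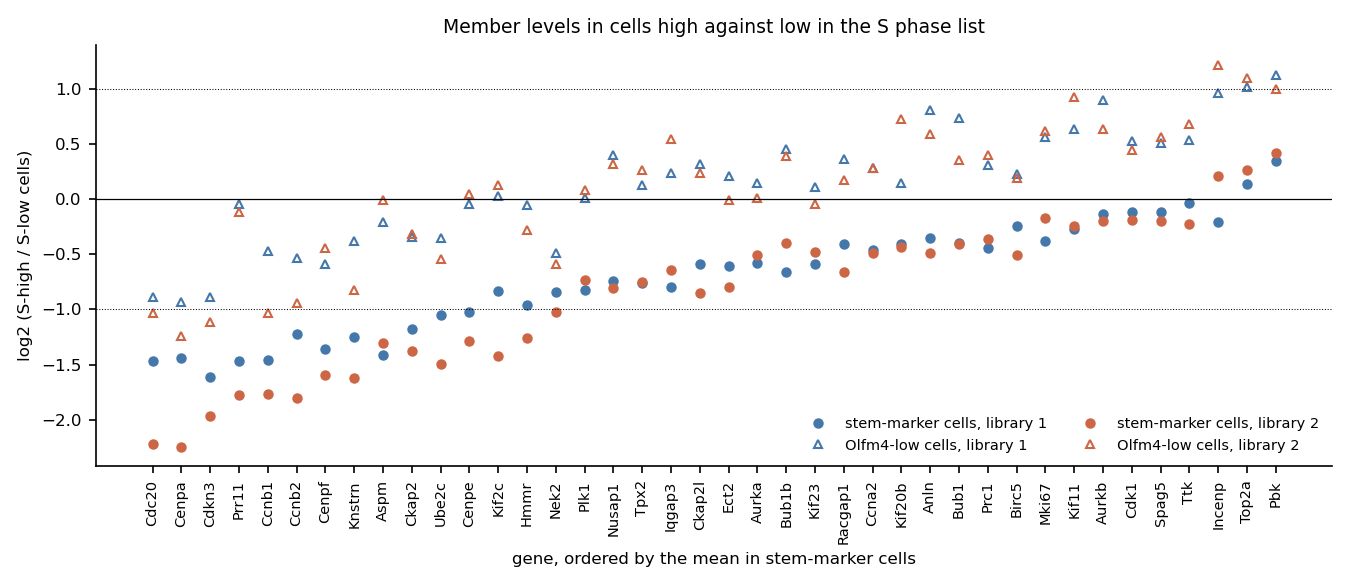
Log2 ratio of each member's level in cells high against low in the S phase list, in library 1 (blue) and library 2 (orange), for stem-marker cells (filled circles) and Olfm4-low cells (open triangles); dotted lines mark 2-fold. Cdc20 and Cenpa, at the left, stand lowest, and Incenp, Top2a and Pbk, at the right, stand at or above 0 on average in stem-marker cells.

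In Olfm4-low cells the same split gave other values. S-high Olfm4-low cells had 5363 and 4767 CPM of members against 4511 and 4108 in S-low ones. Top2a was the 1 member at least 2-fold higher in both libraries, at 806 and 786 against 398 and 368 CPM, beside 4.33% of 11753 genes. Incenp, at 134 and 147 against 68.9 and 63.1 CPM, and Pbk, at 179 and 145 against 82.4 and 72.5, lay close to the cut. Their mean log2 values were 1.09 and 1.06, and that of Top2a was 1.06. None of the 40 was at least 2-fold lower in both, beside 2.23% of genes. Cenpa stood at 106 and 83.8 against 203 and 199 CPM. Prr11 and Aspm, both at least 2-fold lower in S-high stem-marker cells with mean log2 values of -1.63 and -1.36, stood at -0.08 and -0.11 in Olfm4-low cells. Between the classes themselves, 0 of 40 members were at least 2-fold lower in Olfm4-low than in stem-marker cells, beside 7.62% of 12819 genes. Of the S phase list, 11 of 25 were, among them Mcm2 and Uhrf1. The members' median log2 difference was -0.39 and that of the S phase list -1.03. Cdkn3, at 65.8 and 63.5 CPM in Olfm4-low cells, and Birc5, at 308 and 275, were above their stem-marker levels in both libraries. Between Olfm4-mid and stem-marker cells no member differed 2-fold in both libraries.

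Goblet-marker cells held less of most members than stem-marker cells: 24 of 40 were at least 2-fold lower in both libraries, against 10.1% of 12337 genes, and 13 of 40 with cells thinned to 2000 UMIs. The share of all genes in thinned cells was not computed. Among the 24 were Top2a (280 and 231 against 575 and 670 CPM), Ccna2 (126 and 115 CPM), Ccnb1, Cdc20, Nusap1, Prc1, Bub1 and Kif11. Goblet-marker cells with 4 or more members, 89 and 98 of them, carried goblet markers at 39249 and 47124 CPM, and the other 203 and 324 cells at 90554 and 93582. Plk1 was the exception among the 40. It stood at 85.1 and 107 CPM in goblet-marker cells and 82.0 and 82.6 in stem-marker cells, a mean log2 of 0.22, where the next member, Birc5, stood at -0.76.

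Because Plk1 stood out, each member was also read in cells in which fewer than 4 of the other 39 had a UMI after thinning, a comparison chosen after its values were seen. In such goblet-marker cells Plk1 stood at 76.5 CPM (65.4 to 88.9) over 204 cells of library 1 and 88.6 (79.2 to 98.7) over 328 of library 2. The same reading gave 12.5 and 17.2 CPM in stem-marker cells, 5.27 and 7.15 in enterocyte-marker, 16.1 and 20.9 in Paneth-marker and 5.63 and 9.79 in lymphocyte-marker cells. A Plk1 UMI was found after thinning in 13.2% (8.91% to 18.7%) and 19.2% (15.1% to 23.9%) of these goblet-marker cells. In stem-marker cells it was found in 1.92% and 2.91%, and in enterocyte-marker cells in 1.13% and 1.70%. Plk1 was therefore nearly as high in goblet-marker cells with few other members as in all goblet-marker cells. Mki67 stood at 358 and 299 CPM in all goblet-marker cells and at 135 and 102 in those with few others, and Top2a at 280 and 231 and at 103 and 68.2. The Plk1 promoter window holds 1 CHR word and 1 CCAAT word. Plk1 is the only member whose level in these goblet-marker cells was over 2-fold its level in the matching stem-marker cells in both libraries.

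**Figure D3:**
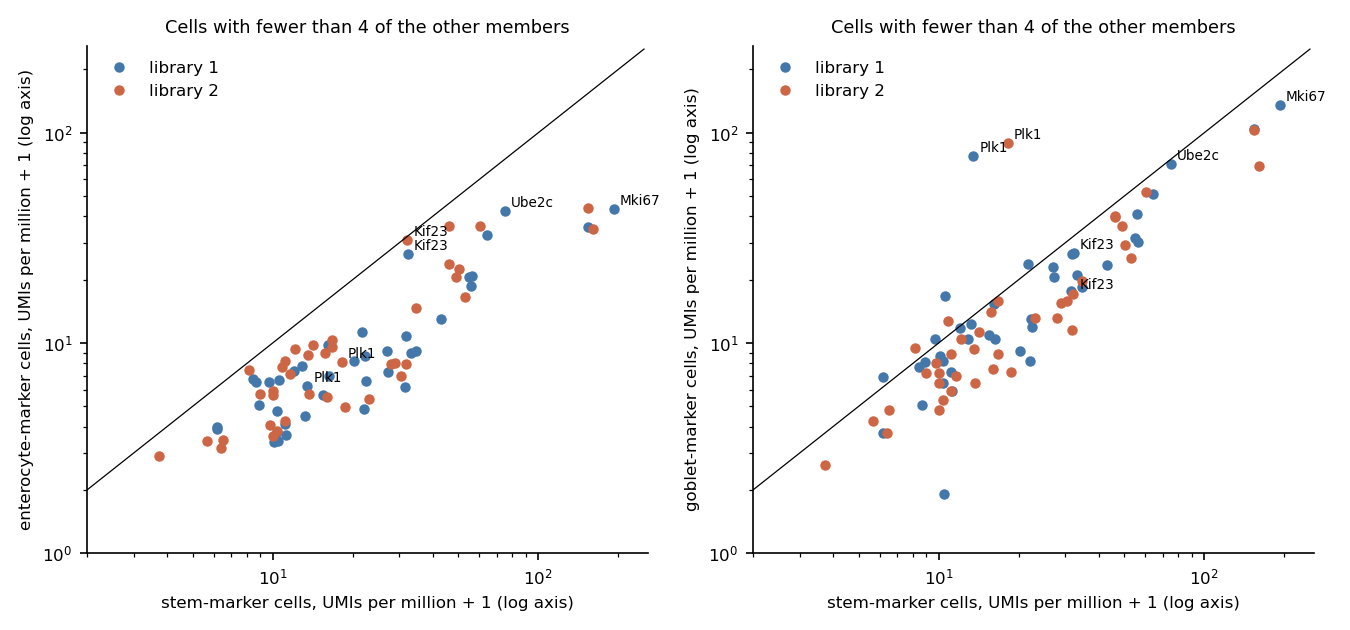
Each point is 1 of the 40 members in 1 library (blue, library 1; orange, library 2), in cells with UMIs of fewer than 4 of the other members after thinning; axes are UMIs per 1000000 plus 1, on log scales, for stem-marker cells (x) against enterocyte-marker (left) and goblet-marker cells (right), and the line marks equal levels. Plk1 at 76.5 and 88.6 CPM in goblet-marker cells lies far above the line, and Kif23 lies close to it in enterocyte-marker cells.

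Kif23 was read in the same way in enterocyte-marker cells. In those with few other members it stood at 25.4 (22.1 to 29.1) and 30.0 (26.8 to 33.4) CPM, against 31.3 and 31.1 in the matching stem-marker cells. For Mki67 the same values were 42.3 and 42.9 against 191 and 153 CPM. Members between these in that ratio included Birc5 at 31.7 and 35.1 against 63.1 and 45.1 CPM, Aurka at 5.53 and 4.89 against 7.65 and 9.08, and Spag5 at 6.74 and 7.23 against 11.9 and 10.1. A UMI of Kif23 was present after thinning in 5.25% and 6.0% of these enterocyte-marker cells and in 6.83% and 4.52% of the stem-marker ones. The residual levels of the other members in enterocyte-marker and Paneth-marker cells can include free RNA, whose part in them was not tested.

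Between the libraries, 0 of 40 members stood apart in stem-marker cells, by a ratio of at least 1.5 either way with an interval that excludes 1, beside 4.33% of 11836 genes. The ratio of the sums was 1.03 (1.02 to 1.04), or 0.958 in thinned cells, with 21 members above 1 and 19 below. Top2a had the highest ratio, 1.17 (1.13 to 1.2), and Mki67 stood at 0.996 (0.964 to 1.03). In Olfm4-mid cells it was again 0 of 40, beside 5.83% of genes, and the sums had a ratio of 0.963. In Olfm4-low cells 0 of 40 stood apart, beside 5.52% of genes, but 33 of 40 ratios were below 1 and the sums had a ratio of 0.895 (0.885 to 0.906). Kif2c, a kinesin that takes microtubules apart, had the lowest, 0.683 (0.585 to 0.795). S phase genes of Olfm4-low cells stood at 1649 and 1258 CPM. The members' median log2 ratio there was -0.16, against 0.03 over all genes. Under the alternative settings the ratio of the sums in Olfm4-low cells ran from 0.854 to 0.998, the highest with all class cuts halved.

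In goblet-marker cells 2 members were lower in library 2, Cdkn3 at 33.1 and 21.4 CPM and Ckap2 at 42.7 and 27.3, and none higher, beside 5.23% of genes either way. It was 10 members with all class cuts halved, 1 with them doubled and 0 at a fold of 2. Of the 40 ratios 36 were below 1, and their median log2 was -0.26, against 0.02 over all genes. The sums had a ratio of 0.844 (0.822 to 0.866). It ran from 0.742 with all class cuts halved to 0.984 with them doubled. In enterocyte-marker cells 1 member was higher, Nek2 at 6.78 and 11.4 CPM, beside 6.10% of genes either way, and the sums had a ratio of 1.18, or 0.878 with all class cuts halved. It was 7 members with at least 1000 genes and at most 15% mitochondrial UMIs required of a cell, 3 with cuts halved or doubled, and 0 with no filter on cells or at a fold of 2. In Paneth-marker cells 3 of 37 measured members stood apart, beside 8.86% of genes: Cdk1 (15 and 25.4 CPM) and Cdkn3 (3.33 and 10.1, from 6 and 23 UMIs) higher, and Kif11 (15 and 7.02) lower. With cells past several cuts given to 1 class it was 17, and the sums had a ratio of 0.635. It was 6 with cuts doubled, 1 with them halved and 0 with at least 100 UMIs required. In tuft-marker cells it was 1 of 15, Cenpe, with 2 and 23 UMIs, beside 5.95% of genes. The tuft count was 6 with cuts halved and 0 with them doubled. Shares over all genes were not computed under these other settings, so these counts have no background to be read against.

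Lymphocyte-marker cells, 274 and 230 in number, differed. Of 39 members measured, 24 were higher in library 2 and none lower, beside 6.19% of 8384 genes higher, and the sums had a ratio of 1.91 (1.80 to 2.03). With at least 100 UMIs required 13 of 14 measured members were higher, beside 6.52% of 3510 genes. At a fold of 2 it was 11 of 39, beside 3.32% of genes. Mki67 stood at 213 and 546 CPM (ratio 2.56, 2.14 to 3.07), Top2a at 281 and 666, and Tpx2 at 57.6 and 149. Aurkb stood at 15.7 and 54.8 CPM, and Bub1b, a gene of the spindle checkpoint, at 10.5 and 40.6, from 8 and 37 UMIs. Bub1b had under 20 UMIs in library 1 and passed the minimum with those of library 2. Each minimum is on the UMIs of both libraries together, so the counts of members higher in library 2 are a description only. Members below 1.5-fold included Cdc20 at 34.0 and 40.6 CPM, Plk1 at 32.7 and 36.2, Kif23 at 49.7 and 48.2 and Racgap1 at 78.5 and 113. Of the S phase genes 19 of 23 measured were also higher in library 2, and the list summed to 1375 and 2657 CPM.

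**Figure D4:**
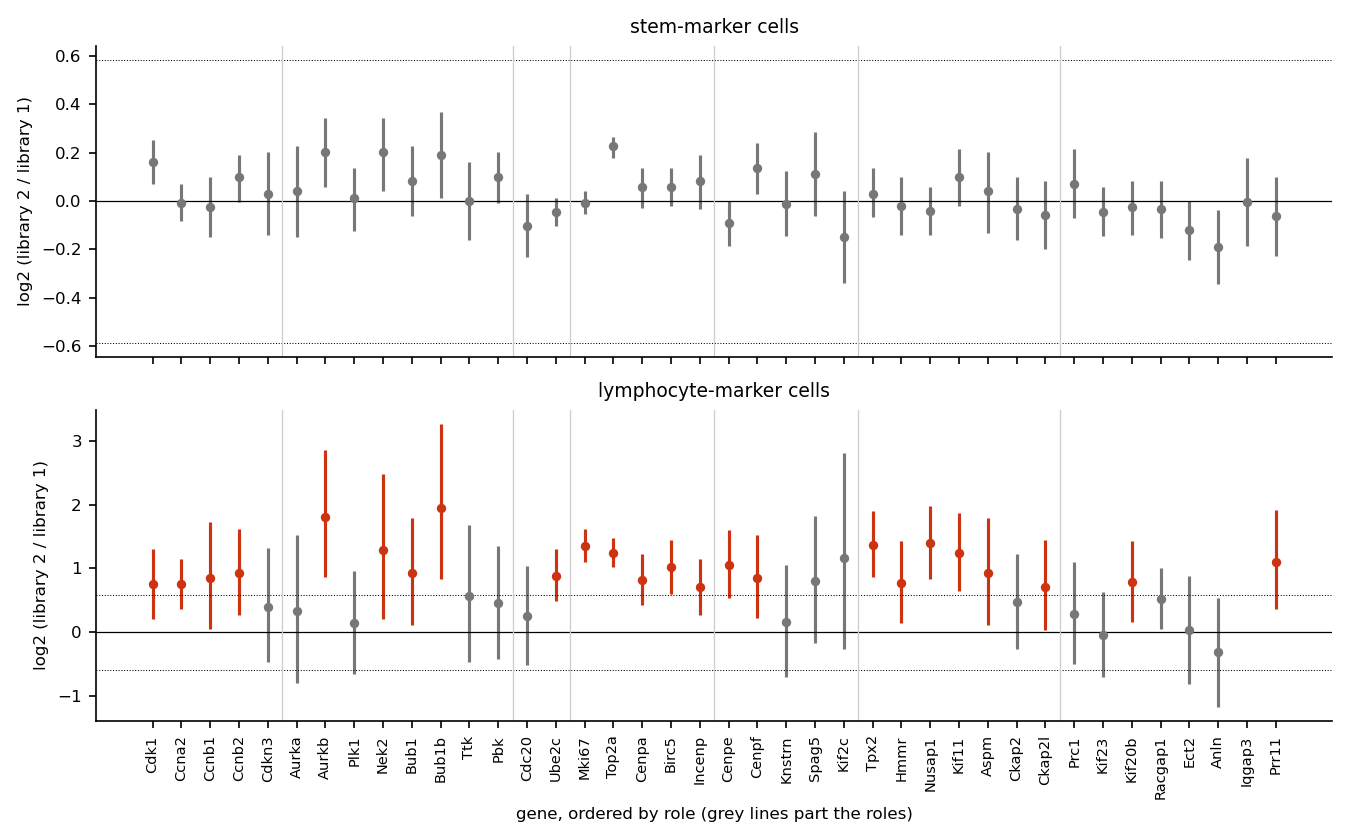
Log2 ratio of library 2 to library 1 for each member with its exact counting interval, in stem-marker cells (top) and lymphocyte-marker cells (bottom; the scales differ); red points stand apart by at least 1.5-fold with an interval that excludes 1, dotted lines mark 1.5-fold, and Iqgap3 in lymphocyte-marker cells had too few UMIs to measure. No point is red in stem-marker cells and 24 are red in lymphocyte-marker cells.

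A small number of lymphocyte-marker cells carried these counts. Of the member UMIs, 50% came from 6 cells of library 1 and from 12 of library 2. Without the 5 cells with most member UMIs in each library the sums were 1249 and 3049 CPM. After thinning, 17 of 206 cells, or 8.25% (4.88% to 12.9%), and 35 of 192, or 18.2% (13% to 24.4%), had 4 or more members. Members in these cells stood at 9732 and 12191 CPM, and at 503 and 731 in the others. Epithelial markers, which would rise in a droplet that also holds an epithelial cell, stood at 2012 CPM in the 17 cells and 762 in the others of library 1, and at 665 and 828 in library 2. Lymphocyte markers stood at 36200 CPM in the 17 cells and 87060 in the others of library 1. In library 2 they stood at 63883 CPM in the 35 cells and 73088 in the others. The part of mixed droplets in these cells was not tested. Without the 47 and 30 lymphocyte-marker cells that passed the epithelial cut, the ratio of the sums was 1.89.

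Relative to stem-marker cells, 13 of 40 members were at least 2-fold lower in lymphocyte-marker cells in both libraries, beside 19.0% of 12421 genes. Iqgap3, a scaffold of the cell cortex, was among them, at 6.54 and 6.58 CPM against 44.7 and 44.5. Incenp, by contrast, stood at 90.3 and 147 CPM against 109 and 115, and Racgap1 at 78.5 and 113 against 101 and 98.8. In lymphocyte-marker cells with few other members Cenpa stood at 90.3 (67.0 to 119) and 86.4 (64.7 to 113) CPM, above the 55.5 and 45 of the matching stem-marker cells. Racgap1 stood there at 41.3 (25.9 to 62.5) and 47.3 (31.7 to 67.9) against 21.2 and 14.8 CPM. Incenp stood at 50.6 and 60.8 against 30.9 and 33.7 CPM. Most other members were lower than in the matching stem-marker cells, such as Birc5 at 15 and 13.1 against 63.1 and 45.1 CPM.

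In enteroendocrine-marker cells, 16 of 20 measured members were lower in library 2, beside 4.73% of 8239 genes, and the ratio of the sums was 0.271 (0.237 to 0.309), or 0.412 in thinned cells. The count is a description only, since 16 of the 20 had under 20 UMIs in library 2 and passed the minimum with those of library 1, such as Cdk1 with 27 and 5 UMIs and Nusap1 with 18 and 5. The other 20 members were too low to measure. With at least 100 UMIs required 2 members were measured, Mki67 and Top2a, both lower, beside 3.23% of genes. That minimum is also on both libraries together, and both genes passed it with the UMIs of library 1. Their count is therefore a description only as well. Mki67 stood at 247 and 44.9 CPM and Top2a at 214 and 52.8. This rested on few cells: 4 cells of library 1 held 50% of its member UMIs, and without the top 5 cells of each library the sums were 580 and 302 CPM, a ratio of 0.520. After thinning, 6 of 44 and 1 of 74 cells had 4 or more members. The 6 cells had enteroendocrine markers at 22455 CPM and stem markers at 1810, against 58747 and 322 in the other 38. Their median depth was 18656 UMIs against 8630, and the part of mixed droplets in them was not tested.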

How the data were processed

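Single-cell RNA was measured in duodenal crypt cells of 2 libraries, each a pool of 5 animals. The authors deposited raw UMI counts per gene and barcode in 1 matrix of both libraries, and these counts were used as deposited. The submitters' processing notes list Cell Ranger 2.1.1 and the build mm10. For the step that called cells, the method was not given in the sources used here. Barcodes of 27 bases sit beside a labelled Chromium V3 kit, so the chemistry is unsettled. The libraries held 54316199 and 54877667 UMIs.

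Counts of 31253 features were merged to 31205 symbols. A minimum of 500 genes and a maximum of 25% mitochondrial UMIs kept 7784 of 12756 barcodes. Marker UMIs per 10000 set the classes, with cuts of 500 for Paneth, 200 for goblet, 50 for enteroendocrine, 20 for tuft, 50 for T or intraepithelial lymphocyte, 120 for enterocyte and 30 for stem markers, and 12 for epithelium. Cells past the B or plasma cut, 23 in number, and 15 others were left out. UMIs were summed per class and library. Genes with at least 20 UMIs were measured. Intervals are exact Poisson, exact conditional and Clopper-Pearson at 95%, and cover counting error only. Since each pool is 1 sample, no spread between animals can be seen. For class folds 0.5 UMI was added to each sum. The ratio code was tested on simulated data. Promoters came from RefSeq (GRCm38.p6), and all 40 gene identifiers matched GENCODE M21.

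The members, lists, cuts and rules were chosen with earlier results of these data known. All members are named, with values for up to 3 per role with most UMIs and for others by range, plus the 15 genes most like the sum and up to 2 genes per other list. Alternatives for filter, cuts, thinning, fold and minimum were computed with Python 3.11.15, numpy 2.4.6, scipy 1.17.1 and pandas 2.3.3.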

Additional observations from a re-analysis of the deposited data

Results flagged for a closer look

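Summed over the 40 members, the ratio of library 2 to library 1 lay on opposite sides of 1 in different classes. It was 0.271 in enteroendocrine-marker cells and 1.91 in lymphocyte-marker cells, against 1.03 in stem-marker cells. With 1 library a group the difference between the classes was not tested. The first value comes from 59 and 89 cells, of which 4 and 12 held 50% of the member UMIs. The second comes from 274 and 230 cells, of which 6 and 12 held 50%. Without the 5 cells with most member UMIs in each library the 2 ratios were 0.520 and 2.44.

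Barcodes left out by the filter on genes and mitochondrial UMIs also carried the members, at 2953 CPM in the 2253 barcodes of library 1 and 2828 CPM in the 2719 of library 2, near the 3693 and 3067 CPM of the kept cells. Those with under 500 genes, 837 and 693 in number, stood at 3591 and 2561 CPM with medians of 613 and 609 UMIs.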

How the results depend on the processing

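Of 73 ratios of library 2 to library 1 under the alternatives, 70 stayed on their side of 1.5-fold and within 1.5 times the value reported, 2 moved further and 1 passed 1.5-fold. No called ratio changed direction. In lymphocyte-marker cells the ratio ran from 1.74 to 2.44, the highest being without the 5 cells with most member UMIs. In stem-marker cells it ran from 0.958 to 1.08. The enteroendocrine-marker ratio was 0.412 in thinned cells and 0.520 without the 5 top cells, and the Paneth-marker ratio was 0.635 when cells past several cuts were given to 1 class. Why values moved was not tested, save that fewer members, cells or UMIs enter by construction. Levels and shares depend on where the marker cuts lie, most of all in enterocyte-marker cells. The alternatives that leave out the 5 top cells, leave out lymphocyte-marker cells past the epithelial cut, or move the cut on S phase genes to 20 or 40 were chosen after seeing the data. No paired analysis was possible because each group has 1 library. Depth limits tuft-marker, enteroendocrine-marker and lymphocyte-marker cells most.

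Values are for libraries 1 and 2, with the class in brackets. Summed levels in CPM are given for both libraries where that of at least 1 left its main counting interval. With no filter on cells, 5212 and 5226 (stem), 5452 and 4936 (Olfm4-mid), 4583 and 4116 (Olfm4-low), 555 and 627 (enterocyte) and 1615 and 1249 (tuft). With at least 1000 genes and at most 15% mitochondrial UMIs, 5467 and 5595 (stem), 5891 and 5619 (Olfm4-mid), 4968 and 4348 (Olfm4-low), 2848 and 2339 (goblet) and 504 and 628 (enterocyte). With class cuts doubled, 5026 and 5439 (stem), 5651 and 5307 (Olfm4-mid), 3712 and 3174 (Olfm4-low), 1682 and 1655 (goblet), 354 and 396 (enterocyte), 945 and 759 (Paneth), 1316 and 461 (enteroendocrine), 754 and 922 (tuft) and 1883 and 3859 (lymphocyte). With class cuts halved, 5494 and 5566 (stem), 5319 and 5366 (Olfm4-mid), 5971 and 5960 (Olfm4-low), 3028 and 2246 (goblet), 1246 and 1094 (enterocyte), 606 and 602 (Paneth), 1556 and 1667 (tuft) and 2271 and 3964 (lymphocyte). With cells past several cuts given to 1 class, 5266 and 5449 (stem), 1215 and 772 (Paneth) and 1737 and 459 (enteroendocrine). With Mki67, Top2a and Ube2c left out, 3718 and 3778 (stem), 3920 and 3896 (Olfm4-mid), 3304 and 2983 (Olfm4-low), 1904 and 1635 (goblet), 388 and 472 (enterocyte), 512 and 480 (Paneth), 998 and 294 (enteroendocrine), 989 and 990 (tuft) and 1463 and 2539 (lymphocyte). With cells thinned to 2000 UMIs, 4847 and 4643 (stem), 5648 and 5306 (Olfm4-mid), 4557 and 3890 (Olfm4-low), 2432 and 1956 (goblet), 600 and 633 (enterocyte), 871 and 698 (Paneth), 1000 and 412 (enteroendocrine), 1361 and 1102 (tuft) and 1420 and 2643 (lymphocyte). With the 5 cells with most member UMIs left out, 5205 and 5339 (stem), 5354 and 4915 (Olfm4-mid), 4579 and 4075 (Olfm4-low), 2437 and 2058 (goblet), 467 and 547 (enterocyte), 625 and 627 (Paneth), 580 and 302 (enteroendocrine), 472 and 564 (tuft) and 1249 and 3049 (lymphocyte). Shares of cells with 4 or more members are likewise given for both libraries where that of at least 1 left its interval. With no filter on cells, 69.5 and 59.4% (Olfm4-mid). With class cuts doubled, 53 and 51.2% (stem), 45.9 and 35% (Olfm4-low), 19.3 and 16.4% (goblet) and 1.87 and 1.72% (enterocyte). With class cuts halved, 72.4 and 63.5% (Olfm4-low), 14.8 and 11.2% (enterocyte), 5.95 and 2.41% (Paneth) and 8.70 and 0% (enteroendocrine). With cells past several cuts given to 1 class, 16.7 and 11% (Paneth). With 2 members required, 77.5 and 74.6% (stem), 89.7 and 82.4% (Olfm4-mid), 75.2 and 66.8% (Olfm4-low), 53.1 and 46.7% (goblet), 23.9 and 22.6% (enterocyte), 35.3 and 38.1% (Paneth), 25 and 18.9% (enteroendocrine), 33.3 and 38.6% (tuft) and 31.1 and 39.1% (lymphocyte). With no thinning, 82.4 and 85.6% (stem), 86.8 and 88.6% (Olfm4-mid), 82.1 and 82.1% (Olfm4-low), 66.1 and 67.4% (goblet), 52.6 and 63.4% (enterocyte), 76.3 and 74.2% (Paneth), 32.2 and 31.5% (enteroendocrine), 29.2 and 42.4% (tuft) and 8.76 and 25.2% (lymphocyte). Counts of members apart between the libraries that moved by over 1.5 times were 1 (Olfm4-mid), 0 (enterocyte) and 2 (tuft) with no filter on cells. They were 1 (Olfm4-mid), 1 (Olfm4-low) and 7 (enterocyte) with at least 1000 genes and at most 15% mitochondrial UMIs. They were 1 (Olfm4-low), 1 (goblet), 3 (enterocyte), 6 (Paneth) and 0 (tuft) with class cuts doubled. They were 2 (Olfm4-mid), 10 (goblet), 3 (enterocyte), 1 (Paneth) and 6 (tuft) with class cuts halved. They were 1 (goblet) and 17 (Paneth) with cells past several cuts given to 1 class. They were 0 (goblet), 0 (enterocyte) and 11 (lymphocyte) with a fold of 2. They were 0 (Paneth), 2 (enteroendocrine), 0 (tuft) and 13 (lymphocyte) with at least 100 UMIs. Counts of members past the class fold that moved were 13 (goblet against stem) with cells thinned to 2000 UMIs and 1 (stem against lymphocyte), 0 (goblet against stem) and 0 (stem S-high against stem S-low) with a fold of 4. Beside these, shares over all genes exist only for the lymphocyte and enteroendocrine counts at a fold of 2 or at least 100 UMIs.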
